A study of Saccharomyces cerevisiae with 8 samples.

Results

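ARO8, ARO9, ARO10, ARO80, BAT1 and BAT2 are genes of budding yeast (Saccharomyces cerevisiae) that act in or regulate the Ehrlich pathway of aromatic and branched-chain amino acids. They were taken by their systematic names (YGL202W, YHR137W, YDR380W, YDR421W, YHR208W and YJR148W) and are 6 of the 7122 features in the deposited count table. ARO8, ARO9, BAT1 and BAT2 encode transaminases. ARO10 encodes a decarboxylase and ARO80 a transcription factor, so the name "transaminases" covers 4 of the 6 genes. The set was chosen by values of these libraries already seen, but which values is not recorded. The comparison of the active thione with DMSO, in which ARO9 and ARO10 were known to be lower, is taken here as the one used. If values of the other groups were used too, the p-values of the 6 genes below are not independent of the choice. For that comparison the values of all 6 genes are given as a description, with no test, and nothing is supported by them. The same holds for ARO9 and ARO10 in any other comparison that uses an active thione or DMSO library. ARO8, ARO80, BAT1 and BAT2 are tested in those other comparisons. Their p-values there may depend on the choice too, since libraries are shared with it.

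In the Ehrlich pathway a transaminase moves the amino group of an amino acid to a keto acid, a decarboxylase turns the resulting keto acid into an aldehyde, and dehydrogenases turn the aldehyde into a fusel alcohol or acid. Yeast uses the route to take nitrogen from tryptophan, phenylalanine, tyrosine, leucine, isoleucine and valine when better nitrogen sources are scarce. The same transaminases also work in the other direction, as the last step of making these amino acids.

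All groups, controls included, were strain W303 lacking PDR1 and PDR3, which encode activators of drug-efflux pumps. Growing cultures (log phase, galactose medium) were treated for about 6 h with 0.8 µM clioquinol (CQ, a metal-binding 8-hydroxyquinoline), with 20 µM of the DHPM-thione (dihydropyrimidine-thione) 10{3,3,1}, labelled active, with the DHPM-thione 11, labelled inactive and also at 20 µM, or with the solvent DMSO. Another label, the growth protocol, writes mM and wild-type yeast; the µM doses and the deletion strain are used here. Each group had 2 libraries, called biological replicates in the series design.

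Library totals ran from 12076141 to 19021672 counts, and no library held a count of PDR1 or PDR3; a count of 0 allows up to 0.248 CPM (counts scaled to a total of 1e6) in the smallest. The galactose genes GAL1, GAL2, GAL7 and GAL10 together held 17862 to 28920 CPM. The labels give no mating type. The 4 alpha-cell markers were all present and summed to 539 to 1795 CPM, while 5 a-cell markers summed to 25.7 to 35.4 CPM, with MFA1 and MFA2, the a-factor genes, at 4 counts or fewer. The alpha markers summed to 539 to 886 CPM in CQ and 1499 to 1795 CPM in DMSO. They summed to 1075 to 1319 CPM with the active and 1078 to 1098 CPM with the inactive thione. All 4 fell with CQ against DMSO (edgeR), where 8.39% of all features passed as lower. Against DMSO, 1 fell with the active thione, where 0.263% of all features did, and 0 with the inactive thione. Their part in the results below was not tested. The 2 CQ libraries stood apart from the rest on a leading principal component that carried 60.2% of the variance. In bulk RNA, fewer cells that express a gene and less RNA per cell cannot be told apart.

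All 6 genes lie on the plus strand of R64, the RefSeq assembly that corresponds to the submitters' sacCer3 build, and each has a single coding exon. That annotation has no untranslated regions, so positions run from start to stop codon. ARO8 is on chromosome VII at 116059 to 117561, ARO9 on VIII at 375709 to 377250, ARO10 on IV at 1234218 to 1236125, ARO80 on IV at 1312040 to 1314892, BAT1 on VIII at 517532 to 518713 and BAT2 on X at 705744 to 706874. BAT1 and BAT2 were identical at 72.2% of aligned coding bases and ARO8 and ARO9 at 59.1%. Neither pair shared an identical stretch of 50 bases. Another feature of the table, YHR137C-A, is named as lying on the strand opposite ARO9, and it held 1 count in CQ replicate 2 and 0 elsewhere.

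The upstream sequences are shown because ARO9 and ARO10 share an arrangement that was not found in the same windows of the other 4 genes. Aro80, the factor made from ARO80, is a zinc-cluster protein known to switch on ARO9 and ARO10 when aromatic amino acids are present, and it binds CCG triplets set 7 bases apart. In the lines that follow the capitals mark 4 CCG triplets at that spacing on the plus strand, with 8 bases on each side, 5′ to 3′, from R64 (chrVIII:375536-375584 and chrIV:1233868-1233916).
ARO9: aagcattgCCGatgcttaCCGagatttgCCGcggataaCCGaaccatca
ARO10: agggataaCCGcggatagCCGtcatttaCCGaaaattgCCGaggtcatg
The run starts 165 bases before the start codon in ARO9 and 342 bases before it in ARO10. Such a run, searched on both strands in the 600 bases before each start codon, was found in 6 of 6018 protein-coding genes (0.0997%). They were ARO9 and ARO10, their divergent neighbours SPL2 and SDH6, whose windows reach the same runs, and SOH1 and ASK1.

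The shorter motif CCGNNNNNNNCCG, again on both strands, had 5 matches before ARO9, 4 before ARO10 and 1 before ARO80, and none in the windows of ARO8, BAT1 and BAT2. Matches inside a run overlap each other. The motif is in 6.31% of the 600-base windows. The region of ARO9 from 250 bases before to 50 bases after its first coding base is printed below with these matches in capitals, and then the ARO80 site with 8 bases on each side (chrVIII:375459-375758 and chrIV:1311890-1311918, plus strand).
ARO9: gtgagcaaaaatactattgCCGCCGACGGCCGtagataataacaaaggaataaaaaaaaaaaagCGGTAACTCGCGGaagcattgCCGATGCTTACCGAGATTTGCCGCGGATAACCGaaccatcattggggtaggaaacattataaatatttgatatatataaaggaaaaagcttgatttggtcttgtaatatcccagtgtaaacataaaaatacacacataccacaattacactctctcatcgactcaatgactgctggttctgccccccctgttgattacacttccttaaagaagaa
ARO80: tattctatCCGATGATAACCGagataaat
BAT1 holds a different motif. Leu3, the regulator of leucine synthesis genes, binds CCGGNNCCGG, which reads the same on both strands. It was found 147 bases before the BAT1 start codon, in none of the other 5 windows and in 0.332% of all 600-base windows. The BAT1 region of 250 bases before to 50 bases after the first coding base (chrVIII:517282-517581, plus strand) is shown with this match in capitals.
BAT1: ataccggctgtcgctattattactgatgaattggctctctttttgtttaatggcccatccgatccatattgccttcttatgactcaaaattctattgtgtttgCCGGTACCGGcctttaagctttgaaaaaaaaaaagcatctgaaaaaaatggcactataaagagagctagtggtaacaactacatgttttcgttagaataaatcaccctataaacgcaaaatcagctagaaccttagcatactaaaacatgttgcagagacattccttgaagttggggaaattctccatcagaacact
The core of the site of Gcn4, the activator of amino acid synthesis, is TGACTC. It was found 171 bases before BAT1 and 570 bases before ARO9, and in 15.3% of all windows. GATAAG, the core that the nitrogen regulators Gln3 and Gat1 bind, was found before ARO8, ARO9 and BAT1 at 155, 539 and 326 bases from the start codon, and in 26.7% of all windows. Only these exact letters were searched, and the shorter GATAA stands in the printed lines of both ARO9 and ARO10. All of these matches describe letters only.

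**Figure D1:**
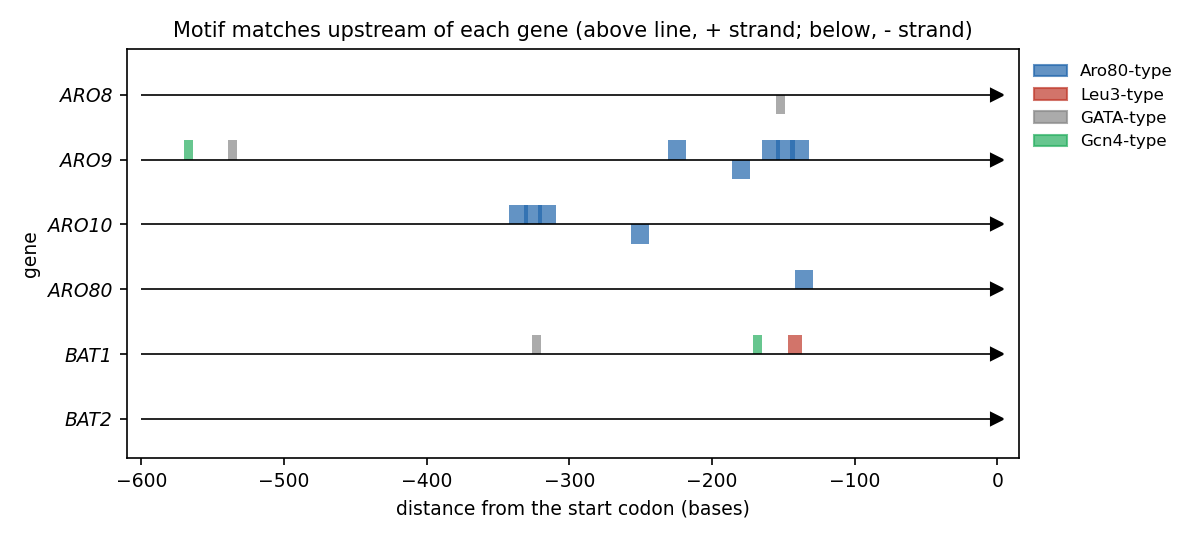
Matches to 4 motifs in the 600 bases before each start codon; the x axis is the distance from the start codon in bases, boxes above a line are on the plus strand and boxes below it on the minus strand. The overlapping Aro80-type boxes of ARO9 start 165 bases and those of ARO10 start 342 bases before the start codon, and BAT2 has no box.

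ARO9, the aromatic transaminase that aromatic amino acids induce, and ARO10, whose product decarboxylates the keto acids of phenylalanine, tyrosine and tryptophan, were higher with CQ than with the inactive thione. ARO9 stood at 78.0 and 105 CPM in the CQ libraries, against 38.6 and 53.0 CPM in the inactive thione libraries. The groups did not overlap, as was so for 51% of all tested features, and the log2 fold change was 1.00 ± 0.24 (SE, edgeR quasi-likelihood test, adjusted p = 0.0226, 95% interval 0.46 to 1.55). ARO10 stood at 238 and 285 CPM in CQ and at 90.1 and 119 CPM with the inactive thione. Again every CQ value lay above every inactive thione value, with a log2 fold change of 1.32 ± 0.19 (SE, edgeR adjusted p = 0.00142). This comparison shares no library with the active thione against DMSO, but whether its values also played a part in choosing the set is not known. CQ and the thione differ in both compound and dose. ARO9 lost its call without CQ replicate 2 (log2 fold change 0.76, edgeR adjusted p = 0.0659) and without inactive thione replicate 1 (0.79, edgeR adjusted p = 0.158), while ARO10 passed whichever library was left out.

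With DMSO and the active thione added, both genes had the same order of groups. ARO9 averaged 91.6 ± 19.3 CPM in CQ, 29.7 ± 6.35 CPM with the active thione, 45.8 ± 10.2 CPM with the inactive thione and 73.6 ± 17.2 CPM in DMSO (SD, n = 2 each). From high to low that is CQ, DMSO, inactive thione, active thione, and only the neighbours CQ and DMSO overlapped, at 78.0 and 105 CPM in CQ against 61.4 and 85.8 CPM in DMSO. ARO10 averaged 261 ± 33.6 CPM in CQ, 70.4 ± 12.4 CPM with the active thione, 104 ± 20.2 CPM with the inactive thione and 164 ± 21.1 CPM in DMSO (SD, n = 2 each). No pair of groups overlapped for ARO10. Among all features the groups did not overlap for 57.1% (CQ), 53.1% (active thione) and 58.5% (inactive thione), each against DMSO. The share was 51% for CQ against the inactive thione and 30.7% between the thiones. It was not computed for CQ against the active thione, nor for all pairs of groups at once. In each of the 4 groups the library numbered 2 was the higher for both genes.

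The active thione against DMSO is the comparison taken as the one that chose the set. ARO9 stood at 25.2 and 34.2 CPM with the active thione and at 61.4 and 85.8 CPM in DMSO, a log2 fold change of -1.30 ± 0.25 (SE). ARO10 stood at 61.7 and 79.2 CPM with the active thione and at 150 and 179 CPM in DMSO, a log2 fold change of -1.22 ± 0.20 (SE). Both active thione libraries were the lowest of the 8 for each gene, and the share of all features with that order was not computed. Among all features, groups did not overlap for 53.1%, and 1.37% of the 5696 tested features passed the edgeR test in that comparison and 0.263% passed as lower, given as background only.

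The inactive thione lay between the active thione and DMSO for both genes, without overlap. Groups did not overlap for 58.5% of all features between the inactive thione and DMSO and for 30.7% between the thiones. Its log2 fold change against DMSO was -0.68 ± 0.24 for ARO9 and -0.65 ± 0.19 for ARO10 (SE). The active against the inactive thione, related compounds at the same dose and time, gave -0.62 ± 0.25 for ARO9 and -0.57 ± 0.19 for ARO10 (SE). CQ against DMSO gave 0.32 ± 0.24 for ARO9 and 0.67 ± 0.19 for ARO10 (SE). These comparisons share libraries with the one taken to have chosen the set or with each other, so they are set side by side without a test. The ratio of ARO10 to ARO9, per kilobase of coding sequence, stayed between 1.69 and 2.46 in the 8 libraries, with 2.46 and 2.19 in CQ and 1.97 and 1.69 in DMSO.

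**Figure D2:**
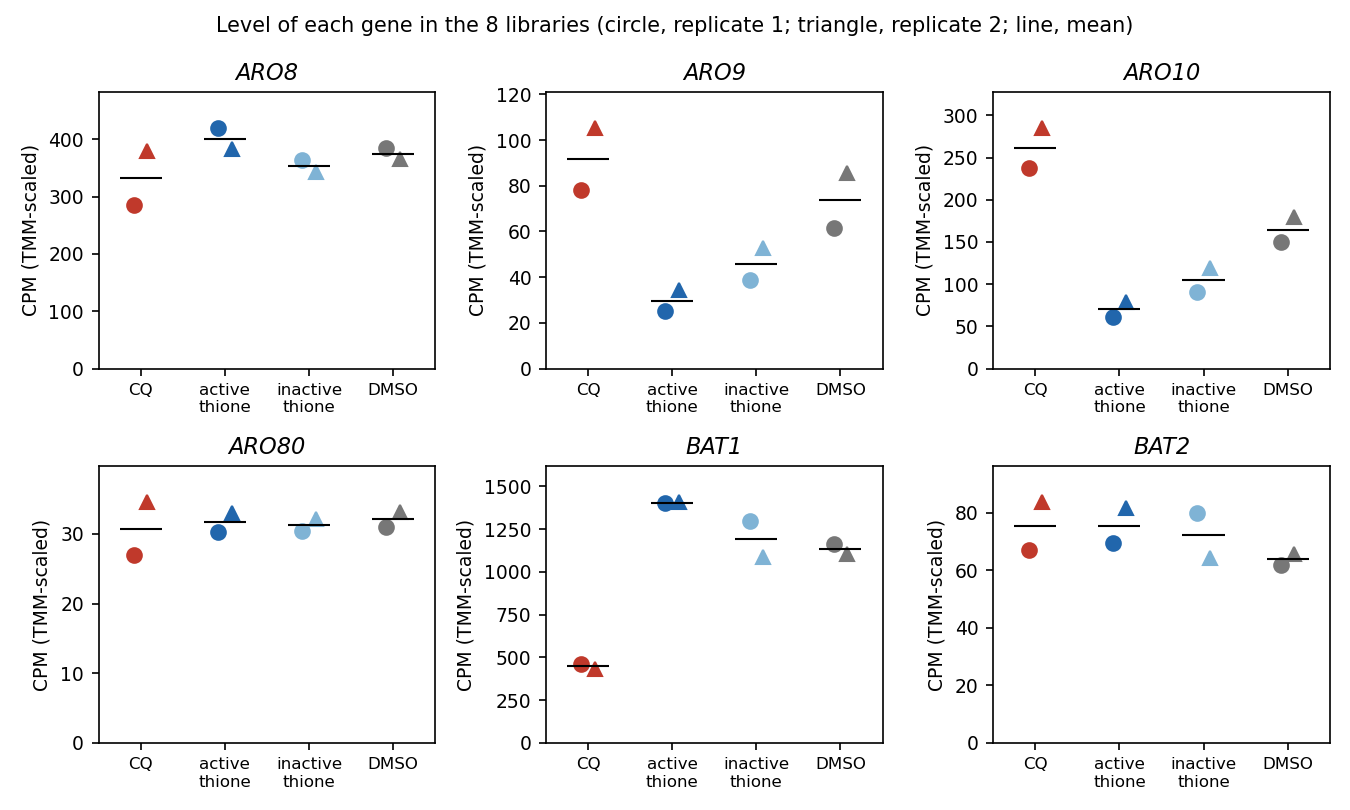
Level of each gene in TMM-scaled CPM in the CQ, active thione, inactive thione and DMSO libraries; circles are replicate 1, triangles replicate 2 and lines the means of 2 libraries. ARO9 and ARO10 share 1 order of groups, with the active thione lowest, and BAT1 stands at 459 and 434 CPM in CQ against 1164 and 1105 CPM in DMSO.

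ARO80 itself, their activator, did not pass any test. It stood at 26.9 and 34.5 CPM in CQ, 30.3 and 33.0 CPM with the active thione, 30.4 and 32.2 CPM with the inactive thione and 30.9 and 33.2 CPM in DMSO. All 4 groups overlapped. On the log2 scale it changed by -0.06 ± 0.17 for CQ against DMSO and -0.03 ± 0.17 for CQ against the inactive thione (SE, edgeR adjusted p = 0.847 and 0.947). The 95% intervals ran from -0.45 to 0.32 and from -0.41 to 0.36. With 2 libraries a group, changes within these ranges are not excluded, and the adjusted test can miss larger ones.

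ARO8, the aromatic transaminase made under most conditions, also did not pass. It stood at 286 and 379 CPM in CQ, 420 and 383 CPM with the active thione, 364 and 342 CPM with the inactive thione and 385 and 365 CPM in DMSO. The 2 CQ libraries were further apart than those of any other group, and their range overlapped that of DMSO. CQ against DMSO gave a log2 fold change of -0.17 ± 0.17 (SE, edgeR adjusted p = 0.528) and CQ against the inactive thione -0.09 ± 0.17 (SE, edgeR adjusted p = 0.791). Per kilobase ARO8 was 3.76 and 3.69 times the level of ARO9 in CQ, 17.1 and 11.5 times with the active thione, 9.68 and 6.63 times with the inactive thione and 6.43 and 4.37 times in DMSO. The share of ARO9 in the pair was thus largest in CQ and smallest with the active thione, as the ARO9 values set it.

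BAT1, the mitochondrial branched-chain transaminase, fell with CQ. Its product makes the last step of leucine, isoleucine and valine synthesis. BAT1 stood at 459 and 434 CPM in CQ, against 1164 and 1105 CPM in DMSO. The groups lay far apart, with a log2 fold change of -1.35 ± 0.16 (SE, edgeR adjusted p = 3.59e-04), a 2.54-fold fall. Against the inactive thione, at 1298 and 1085 CPM, BAT1 changed by -1.42 ± 0.16 on the log2 scale (SE, edgeR adjusted p = 2.56e-04). Whether these values also played a part in choosing the set is not known. If they did, both p-values depend on that choice. The DMSO libraries belong to the comparison taken to have chosen the set, so the p-value against DMSO may depend on it in any case. BAT1 passed in both comparisons whichever library was left out. With the active thione BAT1 stood at 1403 and 1407 CPM, above the other groups, at a log2 fold change against DMSO of 0.31 ± 0.16 (SE), given without a test. Groups did not overlap for 53.1% of all features between the active thione and DMSO and for 30.7% between the thiones.

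BAT2, the cytosolic branched-chain transaminase, did not follow its paralog. It stood at 66.9 and 83.6 CPM in CQ, 69.4 and 81.6 CPM with the active thione, 79.9 and 64.3 CPM with the inactive thione and 61.8 and 65.7 CPM in DMSO. The DMSO libraries lay at the low end and overlapped the inactive thione libraries only; groups without overlap made up 57.1% of features for CQ against DMSO. CQ against DMSO gave 0.24 ± 0.17 on the log2 scale (SE, edgeR adjusted p = 0.394, 95% interval -0.14 to 0.62), and CQ against the inactive thione gave 0.06 ± 0.17 (SE, edgeR adjusted p = 0.867). Per kilobase BAT1 was 6.57 and 4.97 times the level of BAT2 in CQ, 19.4 and 16.5 times with the active thione, 15.5 and 16.1 times with the inactive thione and 18.0 and 16.1 times in DMSO. The CQ ratios lay apart from the other 6, which ranged from 15.5 to 19.4.

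Counted together, 1 of the 4 genes tested for CQ against DMSO fell and 3 did not pass, where 13.3% of the 5696 features passed and 8.39% passed as lower. For CQ against the inactive thione 2 of 6 rose, 1 fell and 3 did not pass, where 13.4% passed, 3.23% as higher and 10.1% as lower. The median log2 fold change of all 6 genes, ARO9 and ARO10 included, was 0.09 and 0.02 in these comparisons, beside 0.03 for all features in each, with members on both sides of 0.

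**Figure D3:**
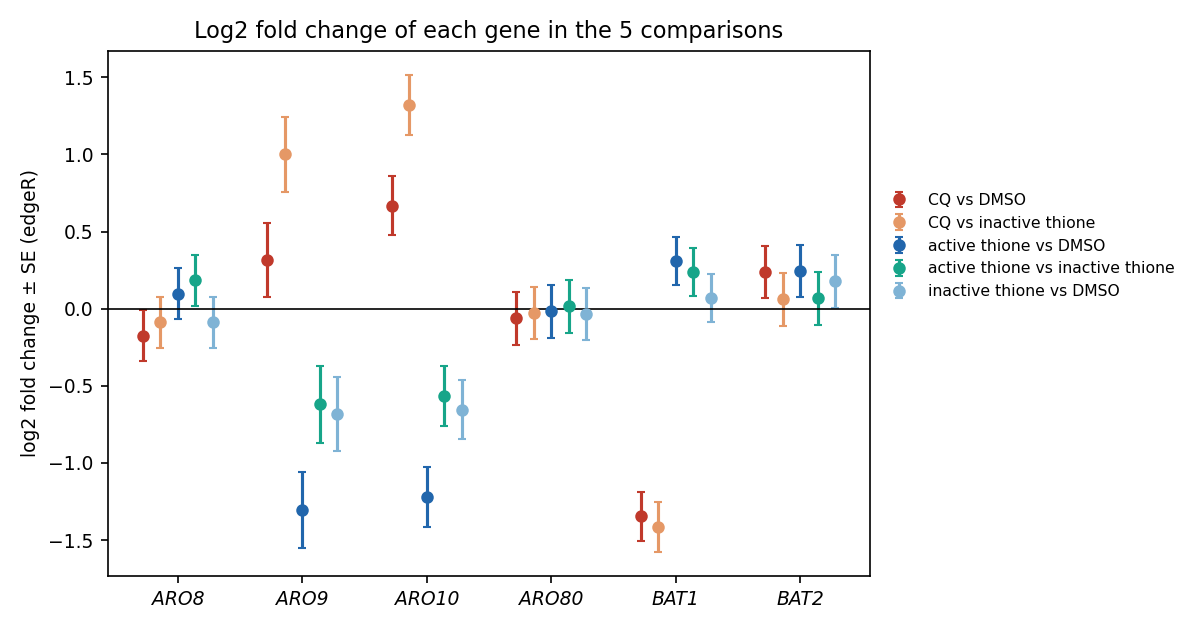
Log2 fold change (y axis, ± SE from edgeR) of each gene in the 5 comparisons, each the first-named group over the second. ARO9 and ARO10 lie above 0 with CQ and below 0 with either thione, while BAT1 is at -1.35 and -1.42 in the 2 CQ comparisons.

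Between the thiones, at the same 20 µM and the same time, none of the 4 tested genes passed. Here 0.123% of features were called, and the inactive thione against DMSO called 0.158%. Neither an unadjusted edgeR p under 0.05 nor DESeq2 picked any of the 4 genes in these comparisons. Active against inactive, the log2 fold change was 0.18 for ARO8 (95% interval -0.19 to 0.56), 0.02 for ARO80 (-0.37 to 0.40), 0.24 for BAT1 (-0.11 to 0.59) and 0.07 for BAT2 (-0.32 to 0.45). The edgeR adjusted p was 1.00 for each. Inactive against DMSO gave -0.09 for ARO8 (edgeR adjusted p = 0.820), -0.03 for ARO80 (0.939), 0.07 for BAT1 (0.849) and 0.18 for BAT2 (0.633). A p that misses the threshold does not show that the compounds act alike.

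The fall of BAT1 in CQ went with that of other genes of its pathway. Of 11 genes of branched-chain amino acid synthesis 8 fell with CQ against DMSO, 0 rose and the other 3 missed the threshold, where 13.3% of all features were called and 8.39% as lower. The list had a median of -0.81 on the log2 scale, against 0.03 for all features. LEU1, the isopropylmalate isomerase, stood at 103 and 90.6 CPM in CQ and at 1956 and 1898 CPM in DMSO, a log2 fold change of -4.32 ± 0.18 (SE, edgeR adjusted p = 4.55e-07). ILV3, the dihydroxyacid dehydratase, fell by 2.05 ± 0.18 and LEU4, the isopropylmalate synthase, by 1.49 ± 0.16 on the log2 scale (SE). LEU1 and ILV3 encode iron-sulfur proteins. LEU3, the regulator whose motif lies before BAT1, was at 142 CPM in both groups on average, with a log2 fold change of -0.00 ± 0.19 (SE, edgeR adjusted p = 1.00). Leaving out DMSO replicate 1 made the 8 into 4, and leaving out DMSO replicate 2 or CQ replicate 1 made it 5, but LEU1, ILV3 and LEU4 passed each time. Against the inactive thione 6 of the 11 fell, where 13.4% of all features were called and 10.1% as lower.

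**Figure D4:**
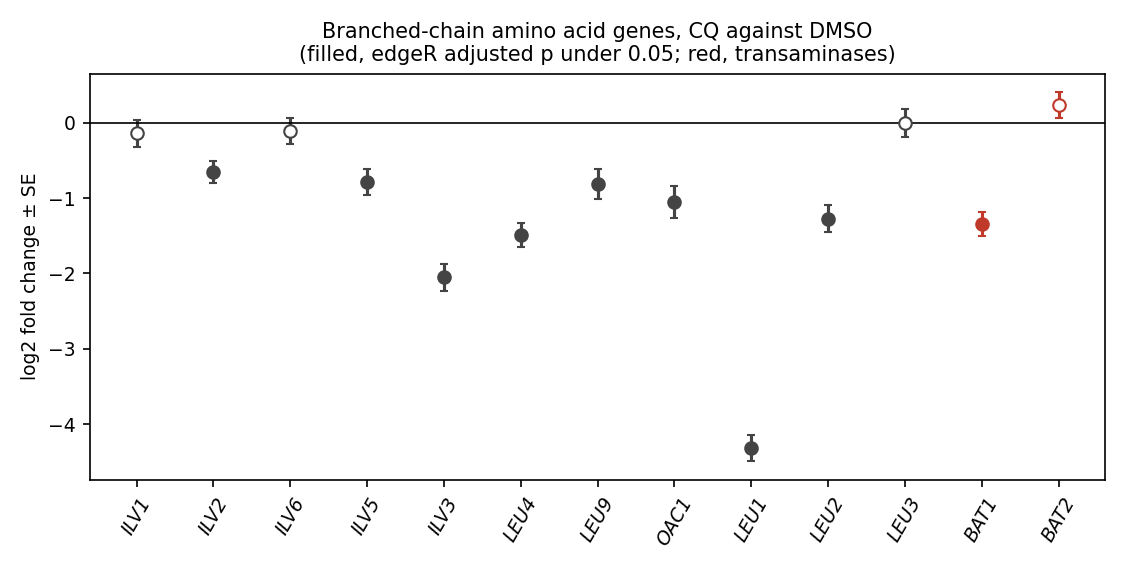
Log2 fold change ± SE of 11 genes of branched-chain amino acid synthesis and of BAT1 and BAT2 (red), CQ over DMSO; filled points passed the edgeR test. BAT1, at -1.35, lies among the genes that fell, and BAT2, at 0.24, does not.

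The thione comparisons called few features of any kind, 1.37%, 0.158% and 0.123% of all those tested in the order given next, so a count of 0 in a short list is near that background. For the active thione against DMSO, the inactive thione against DMSO and the active against the inactive thione edgeR called 0 of the 11 branched-chain genes, 3, 1 and 0 had an unadjusted p under 0.05, and DESeq2 called 0 each time. LEU4 had log2 fold changes of 0.36 ± 0.15 and 0.39 ± 0.15 (SE) for the active and the inactive thione against DMSO.

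Aromatic amino acid synthesis held 1 called gene of 12 with CQ against DMSO, near the 8.39% of all features called as lower. It was ARO3, a DAHP synthase at the entry of the pathway, which fell by 1.11 ± 0.18 on the log2 scale (SE, edgeR adjusted p = 0.00257), and it also fell against the inactive thione. The list median was -0.20 against 0.03 for all features. Of 21 genes of the later Ehrlich steps 2 rose and 3 fell with CQ against DMSO, where 13.3% of all features were called. PDC6, a minor pyruvate decarboxylase, averaged 8.86 CPM in CQ and 1.37 CPM in DMSO. ADH4, an alcohol dehydrogenase, fell by 0.86 ± 0.15 and WAR1, the regulator of the acid exporter gene PDR12, by 1.13 ± 0.20 on the log2 scale (SE). The count of 5 became 3 without DMSO replicate 1 or with the compared groups alone, and 8 with the replicate block. ADH5, an alcohol dehydrogenase chosen after its values were seen, was the only gene of this list called with either thione against DMSO, at 60.8 CPM with the active thione, 48.1 CPM with the inactive thione and 21.0 CPM in DMSO on average. The active thione call was lost without either DMSO library or active thione replicate 2 (edgeR adjusted p = 0.0524 to 0.103), and the inactive thione call without any 1 of the 6 DMSO and thione libraries (0.105 to 0.644).

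Of 12 amino acid permease and sensor genes 1 rose and 1 fell with CQ against DMSO, and of 27 tested genes under nitrogen catabolite repression 2 rose and 3 fell. Both shares are near the 13.3% of all features called. GAP1, the general permease, fell by 1.34 ± 0.33 on the log2 scale (SE, edgeR adjusted p = 0.0258), lost without DMSO replicate 2 or CQ replicate 1 (edgeR adjusted p = 0.141 and 0.107). PTR3, part of the amino acid sensor, rose by 0.56 ± 0.16 (SE, edgeR adjusted p = 0.0447), lost in 10 of 14 alternatives. The nitrogen list had 3 calls, in place of 5, without DMSO replicate 1 and without DMSO replicate 2. PRB1, a vacuolar protease, rose by 1.70 ± 0.18, DUR3, a urea and polyamine transporter, rose by 1.53 ± 0.22, and PUT1, proline oxidase, fell by 1.39 ± 0.23 (SE). GLN3 and GAT1, the activators, did not pass (edgeR adjusted p = 0.361 and 0.124), though GAT1 passed without either inactive thione library (0.0477 and 0.0379). CQ against the inactive thione, where ARO9 and ARO10 rose, had 2 risers and 8 fallers among the 27. Of all features 13.4% were called there, 3.23% as higher and 10.1% as lower. GAT1 was lower by 1.19 ± 0.21 on the log2 scale (SE, edgeR adjusted p = 0.00392). Against DMSO its log2 fold change was -0.53 with CQ and 0.65 with the inactive thione, so both groups enter that difference. The 10 became 5 without inactive thione replicate 2. For the inactive thione against DMSO edgeR called 0 of the 27, 10 had an unadjusted p under 0.05, and DESeq2 called 5, all higher. In the list of 16 genes, GCN4 with histidine and arginine synthesis, edgeR called HIS1 alone with CQ against DMSO, as lower. Of all features 8.39% were called as lower. DESeq2 called 3 of the 16, all lower. Against the inactive thione 4 of the 16 fell with CQ, where 10.1% of all features fell. GCN4 had a log2 fold change of 0.11 ± 0.17 for CQ against DMSO (SE, edgeR adjusted p = 0.725). HIS1 was lost without any 1 of the DMSO or CQ libraries (edgeR adjusted p = 0.0545 to 0.193). With the active thione against DMSO 4 of these 16 genes and 2 of the 27 nitrogen genes rose, where 1.37% of all features were called. DESeq2 called 7 of the 16 and 4 of the 27, and the replicate block 7 of the 16, while 0 of either list were called without DMSO replicate 1 or 2 or without either active thione library.

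The features whose log2 CPM ran most like that of each gene over the 8 libraries are given as a description. The points share group, library and depth, and 5058 features were candidates. ARO9 and ARO10, already known to be lower together with the active thione against DMSO, had a Pearson r of 0.978 with each other. Outside the 6 genes ARO9 was nearest to MMP1, a transporter of S-methylmethionine (r = 0.969), then RAD24 and NUD1, and ARO10 to LYS9 of lysine synthesis (0.972), then VTS1 and NUD1. MMP1 had log2 fold changes of -0.92 for the active thione, -0.58 for the inactive thione and -0.05 for CQ, each against DMSO. BAT1 was nearest to PRM10 (0.997), PLC1 and PYC1, ARO8 to APM1 (0.984), RDS3 and SUS1, ARO80 to APJ1 (0.964), PDE2 and NUR1, and BAT2 to GPM1 (0.922), DOT5 and MSL1. The BAT1 points form a CQ cluster and a cluster of the other 6 libraries.

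SPL2, a gene of the phosphate response, is the divergent neighbour of ARO9, and 608 bases separate the coding sequences. It was looked at for its position. SPL2 stood at 14.9 and 11.2 CPM in CQ, 88.0 and 101 CPM with the active thione, 60.3 and 50.9 CPM with the inactive thione and 22.5 and 23.5 CPM in DMSO. Its order of groups is the reverse of that of ARO9, with the active thione highest and CQ lowest. Groups did not overlap for 57.1% of all features (CQ) and 58.5% (inactive thione), each against DMSO, and 30.7% between the thiones. SPL2 passed for the active thione, the inactive thione and CQ against DMSO (edgeR adjusted p = 0.00121, 0.0347 and 0.0169). With the compared groups alone the edgeR adjusted p for CQ was 0.0660. SPL2 did not pass between the thiones (edgeR adjusted p = 0.512). SDH6, the divergent neighbour of ARO10, was not looked at.

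**Figure D5:**
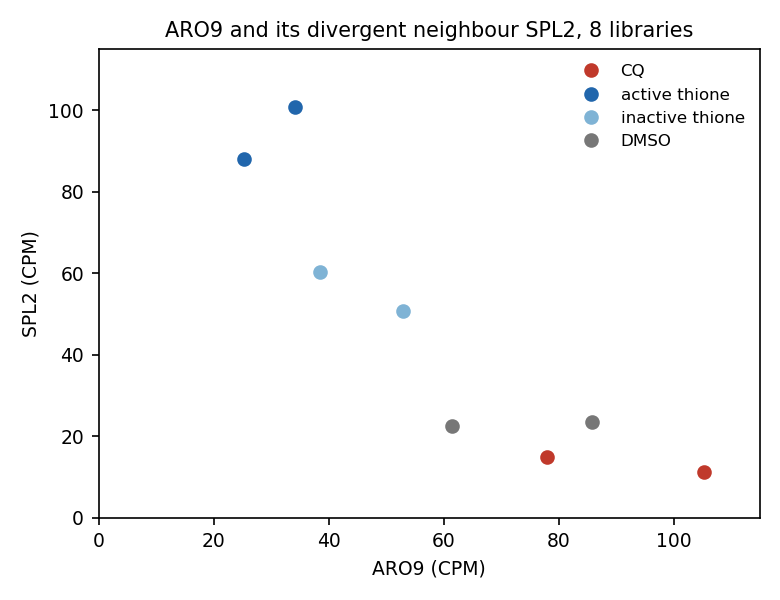
ARO9 (x axis) and its divergent neighbour SPL2 (y axis) in CPM, 1 point per library, coloured by group. The active thione libraries combine the lowest ARO9 with the highest SPL2 values, 88.0 and 101 CPM, and the CQ libraries have the lowest SPL2 values, 14.9 and 11.2 CPM.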

How the data were processed

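RNA of 8 libraries was analysed, 2 per group. The authors deposited raw read counts per feature, 1 column per library. The build was sacCer3 and the tools named are TopHat2 2.1.1, TopHat, HTSeq and DESeq, per the submitters' processing notes. Annotation, strand and counting mode: not given in the sources used here. Antisense reads may therefore be included. The deposited table also holds normalized values, a signal scaled by library size factors; recomputed factors lay within 5.34e-05 of those, and the signal had no other use. Of 7122 features 6045 were named from R64. The 4 empty lines of the copy used were not analysed.

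Counts were tested with edgeR 4.0.16 in R 4.3.3 (quasi-likelihood, two-sided, TMM scaling, filterByExpr, 1 term per group, all 8 libraries in 1 fit). The filter kept 5696 features, all 6 genes among them. P-values were adjusted by Benjamini-Hochberg over these, with 0.05 as threshold. SE is the log2 fold change over the square root of F. CPM uses TMM-scaled totals, except that the summed galactose, alpha-cell and a-cell markers and the limit of 3 counts use unscaled library totals. Log2 CPM has a prior count of 2. Intervals of 95% come from the fit; the limit of 3 counts covers counting error only. The steps were checked on simulated counts. DESeq2 1.42.0, other scaling, filters, feature sets, a replicate block and leaving out each library were alternatives.

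The genes and lists were chosen with earlier results of these data known. Genes named from a list are up to 3 with the smallest p called for CQ against DMSO and up to 3 between the thiones, plus LEU3, GCN4, GLN3, GAT1, LEU1, ILV3, LEU4, PDR1 and PDR3; those with nearest patterns are the 3 highest correlations among features averaging at least 3 in log2 CPM. Replicate pairs differed by a chi-square per degree of freedom of 22.8 to 103, far above sampling noise, so each library counted as a sample. Motifs were searched in the RefSeq R64 sequence with biopython 1.88.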

Additional observations from a re-analysis of the deposited data

How the results depend on the processing

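The calls of the 6 genes were the same under DESeq2, with its size factors in edgeR, with no filter, with the compared groups alone, with RefSeq features only and with the replicate block. With 1 library left out they ranged from 1 to 1 for CQ against DMSO and from 2 to 3 for CQ against the inactive thione, where ARO9 is the gene lost, and were 0 throughout for the other comparisons tested. Counts over all features moved more; the cause was not tested. For the active thione against DMSO they were 78, and 188 with DESeq2, 133 with the compared groups alone and 174 with the replicate block. For the inactive thione against DMSO they were 9, and 84 with DESeq2 and 54 with the block. Between the thiones they were 7, and 27 with DESeq2 and 13 with the block. Leaving out 1 library gave 367 to 1419 for CQ against DMSO (758 in all; 367 and 404 without DMSO replicates 1 and 2, 1419 without CQ replicate 2), 4 to 108 for the active thione against DMSO (4 and 9 without DMSO replicates 1 and 2, 27 and 7 without active thione replicates 1 and 2, 45 and 43 without inactive thione replicates 1 and 2), 1 to 18 for the inactive thione against DMSO (1 without either DMSO library, 18 without either CQ library, 4 without either active thione library, 3 without inactive thione replicate 2), 3 to 10 between the thiones (4 without active thione replicate 2, 3 without inactive thione replicate 2) and 458 to 1126 for CQ against the inactive thione (762 in all; 458 without inactive thione replicate 2). Deviations of same-numbered libraries correlated at 0.39, 0.43 and 0.33 among the active thione, inactive thione and DMSO groups, and at -0.15, 0.21 and -0.09 between CQ and DMSO, the active and the inactive thione. No label ties the numbers to a shared culture or day, so whether they pair the libraries is not known; the block results are given for that case. The 18 nearest features were the same 18 with a prior count of 0.5 and with an average log2 CPM of at least 1. Where 1 library was left out, the remaining one was assumed to vary like the other groups, and with 2 libraries a group small changes may be missed.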
